A study of Arabidopsis thaliana with 4 samples.

Results

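Small heat shock proteins are a family of ATP-independent chaperones that share an alpha-crystallin domain. They bind unfolding proteins and hold them in a form that the larger HSP70 and HSP101 machines can refold. Plants carry separate classes of them in the cytosol, plastids, mitochondria and endoplasmic reticulum (ER), and most are known to be nearly silent in unstressed leaves and strongly induced by heat through heat shock factors. Several are also known to accumulate in maturing seeds and under osmotic or oxidative stress. The genes described here are 10 loci chosen by identifier, with earlier results of these data known, out of 33602 genes in the deposited tables. They comprise 6 loci listed as cytosolic class I (AT1G07400, AT2G29500, AT1G53540, AT1G59860, HSP17.4 or AT3G46230, and HSP18.2 or AT5G59720), the class II gene HSP17.6II (AT5G12020), plastid HSP21 (AT4G27670), ER HSP22.0 (AT4G10250) and mitochondrial HSP23.6-MITO (AT4G25200). The 4 loci without a symbol are annotated in RefSeq only as HSP20-like chaperones.

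RNA was measured in whole Arabidopsis thaliana seedlings 12 days after sowing, reading the labels' das in that sense. The overexpressor of sORF1511, a small open reading frame, is a single line, number 7 in the design text, so an effect of that line cannot be told apart from one of the transgene. The sources used here do not give the promoter of the transgene, and the level of sORF1511 itself was not analysed here. The other genotype is Col-0 (WT), and neither genotype has a heat or other treatment in its labels. Each genotype has 2 biological replicates, and each library comes from 5 pooled seedlings. Since whole seedlings were pooled, more cells that express a gene and more RNA per cell cannot be told apart.

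Total estimated reads were 18547136 and 25740234 in overexpressor replicates 1 and 2, and 13974460 and 24508631 in WT replicates 1 and 2. WT replicate 1 stood apart: 31.7% of its reads belonged to organelle-encoded genes, against 1.02% to 1.47% in the other 3 libraries. Leaf markers summed to 53939 to 58194 TMM-scaled CPM in overexpressor libraries and 48122 to 49931 CPM in WT libraries. Root markers, 7 of them, summed to 1.04 and 2.26 CPM in overexpressor libraries and to 6.88 and 18.7 CPM in WT libraries, and 5 of the 7 were lower in both overexpressor libraries than in either WT library. Flower markers summed to at most 3.28 CPM in any library. Of 10 seed markers, 5 had no read in any library and 7 had at most 3 reads in every library; the 10 summed to 4.32 and 3.39 CPM in overexpressor libraries and to 1.34 and 1.92 CPM in WT libraries, mostly from the oleosin OLEO4. The part of these differences in the results on small heat shock genes was not tested.

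Heat shock factors bind inverted repeats of a 3-base unit, which makes the sequence before the start codon the part of these genes that is known to carry their heat response. All 10 genes held at least 1 heat shock element core, GAANNTTC or TTCNNGAA, within the 400 bases before the start codon. Of 27443 protein-coding nuclear genes, 28.6% held a core in the same window. So did 5 of 7 small heat shock genes outside the 10 and 13 of 20 larger chaperones and heat-induced partners. An element with 3 alternating units of GAA and TTC, each 2 bases apart, contains 2 overlapping cores. It was found in 4 of the 10, in 0 of those 7 and in 7 of those 20, against 0.955% of all genes. Both strands were read, and a match describes letters, not a bound site. The window was set from the start codon because RefSeq's transcript lengths equal the deposited length for 1 of the 10 genes only, so that the transcript ends differ between gene models. The deposited tables name no genome build; the positions below are those of RefSeq's own models on TAIR10.1, matched by locus identifier. Each stretch of 30 bases below is written on the gene's own strand, 5′ to 3′, with the units of its longest element in capitals. The first pair belongs to AT1G07400, the gene that passed the test below, and its closest relative, and the other stretches are those of the 4 genes with 3 units.
AT1G07400, chr1:2274983-2275012, plus strand: ggacccgtaaaTTCtaGAAgctctggagat
AT1G59860, chr1:22031339-22031368, plus strand: atttgcctcatTTCtaGAAgctctggagat
HSP17.4, chr3:16984864-16984893, minus strand: agaaacctGAAatTTCaaGAAacttgcaga
AT1G53540, chr1:19980238-19980267, plus strand: caacaccaGAAacTTCttGAAagcacctga
HSP18.2, chr5:24062388-24062417, plus strand: caacaaacGAAacTTCctGAAatgccaaga
HSP22.0, chr4:6370379-6370408, plus strand: aaagatatTTCaaGAAacTTCttcattctt
The elements of AT1G07400, AT1G59860, HSP18.2 and HSP22.0 lie inside the annotated gene, 5′ of the coding part, and those of AT1G53540 and HSP17.4 lie before the annotated start. HSP17.4 was the only one of the 10 with more than 1 element of 3 units, having 2. The core of the abscisate-responsive element, ACGTG, was found before 5 of the 10 genes, HSP17.4, AT1G53540, HSP18.2, HSP22.0 and HSP23.6-MITO, against 29.7% of all genes. The core of the dehydration-responsive element, CCGAC, was found before 3 of the 10, against 19.6% of all genes.

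**Figure D1:**
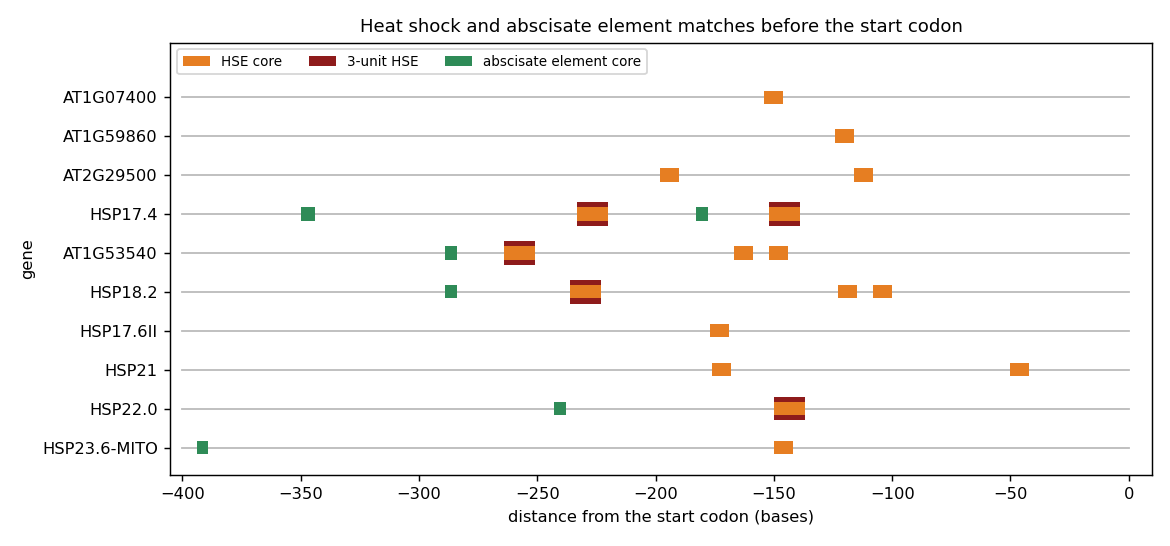
Matches to the heat shock element core (orange), to an element of 3 units (dark red, seen above and below the orange cores it contains) and to the abscisate-responsive core (green) in the 400 bases before the start codon of each gene; the x axis is the distance from the start codon in bases. All 10 genes have an orange block and 4 have a dark red one.

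Of the small heat shock genes, the class I gene AT1G07400 was higher in overexpressor seedlings and passed the test over all genes, and no other did. Levels are TMM-scaled CPM. Each log2 fold change sets overexpressor over WT and carries its SE; p-values come from the quasi-likelihood test of edgeR and were adjusted over the 19474 genes that passed its low-count filter. Of the 10 genes 9 passed that filter, HSP21 having too few reads, and 1 rose and 0 fell at an adjusted p below 0.05. Among all genes tested, 27 rose (0.139%) and 2 fell (0.0103%), or 570 and 239 when libraries were scaled by their size only. At an unadjusted p below 0.05, 3 of the 9 were higher and 0 lower; over all genes tested 11.9% were higher and 21.7% differed in either direction. Both overexpressor libraries stood above both WT libraries for 6 of the 9, against 28.7% of all genes tested, and also for the untested HSP21, which makes 7 of 10. None of the 9 was below WT in this way, against 28.4% of all genes tested, and neither was HSP21. Over all 33602 genes, tested or not, 6159 stood above and 6316 below, while 9663 had no read in any library. With the deposited TPM, or with organelle genes left out before scaling, 6 of 10 stood above, settings chosen after seeing the data. The share over all genes was not counted under these settings. The log2 fold change was above 0 for 9 of 9, against 48.5% of all genes tested. Without WT replicate 1 it was above 0 for 7 and below 0 for 2, and without overexpressor replicate 1 likewise for 7 and 2. Since the genes were chosen with earlier results of these data known, these shares are a description and not a test. The median log2 fold change of the 9 was 1.11, beside -0.01 over all genes tested, and it was 0.57 without WT replicate 1 and 2.26 without WT replicate 2.

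AT1G07400, a class I protein of the cytosol, had 13.2 and 13.3 CPM in overexpressor replicates 1 and 2 and 1.34 and 1.95 CPM in WT replicates 1 and 2. The libraries of a genotype lay close together and the genotypes far apart, with means of 13.2 ± 0.0798 CPM in overexpressor and 1.65 ± 0.433 CPM in WT seedlings (SD, n = 2 each). It rose by 2.95 ± 0.22 on the log2 scale, with a 95% interval of 2.39 to 3.51 and a Benjamini-Hochberg adjusted p of 0.0471 from edgeR. Leaving out overexpressor replicate 1 gave 2.99 and leaving out overexpressor replicate 2 gave 2.97, but in these fits AT1G07400 did not pass, with adjusted p of 0.165 and 0.318 from edgeR. In the deposited reads AT1G07400 had 253 and 364 in the overexpressor libraries and 15 and 54 in the WT libraries, so that WT replicate 1 rests on few reads.

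HSP17.4, also of class I, had 28.6 and 24.8 CPM in overexpressor replicates 1 and 2, against 2.32 and 7.85 CPM in WT replicates 1 and 2. AT2G29500, of the same class, had 26.996 and 24.03 CPM in overexpressor replicates and 4.47 and 11.6 CPM in WT replicates. In both genes the overexpressor libraries agreed closely, while the WT libraries were more than 1 apart on the log2 scale. Their log2 fold changes were 2.30 ± 0.50 for HSP17.4 and 1.61 ± 0.41 for AT2G29500, with adjusted p of 0.121 and 0.143 from edgeR, so neither passed. Without WT replicate 1 the values were 1.77 and 1.15. Without WT replicate 2 the values were 3.52 and 2.51. Both genes passed with DESeq2, which called 3 of the 10 genes higher, AT1G07400 being the other, and 0 lower. Over all genes DESeq2 called 4.4% higher and 1.48% lower.

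AT1G53540, the class I gene whose coding sequence is most like that of HSP17.4, had 14.4 and 8.93 CPM in overexpressor replicates and 2.41 and 7.81 CPM in WT replicates. The lower overexpressor library was thus just above the higher WT library, and the log2 fold change of 1.11 ± 0.54 did not pass (adjusted p of 0.292 in edgeR's test). It was 0.58 without WT replicate 1 and 2.26 without WT replicate 2. HSP18.2 had 13.5 and 6.38 CPM in overexpressor replicates and 6.17 and 11.5 CPM in WT replicates. The genotypes overlapped in HSP18.2, with a log2 fold change of 0.14 ± 0.45 and a 95% interval of -1.01 to 1.28. Its sign turned without WT replicate 1, at -0.21, and without overexpressor replicate 1, at -0.47. AT1G59860 had 2.03 and 1.42 CPM in overexpressor replicates and 1.25 and 1.34 CPM in WT replicates, so that the CPM of both overexpressor libraries was above that of both WT libraries by a small margin. In the deposited TPM this did not hold, with 3.90 and 2.81 TPM in overexpressor replicates and 2.01 and 2.90 TPM in WT replicates. Its log2 fold change was 0.40 ± 0.34 with a 95% interval of -0.48 to 1.27, and it ran from 0.14 without overexpressor replicate 1 to 0.64 without overexpressor replicate 2.

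**Figure D2:**
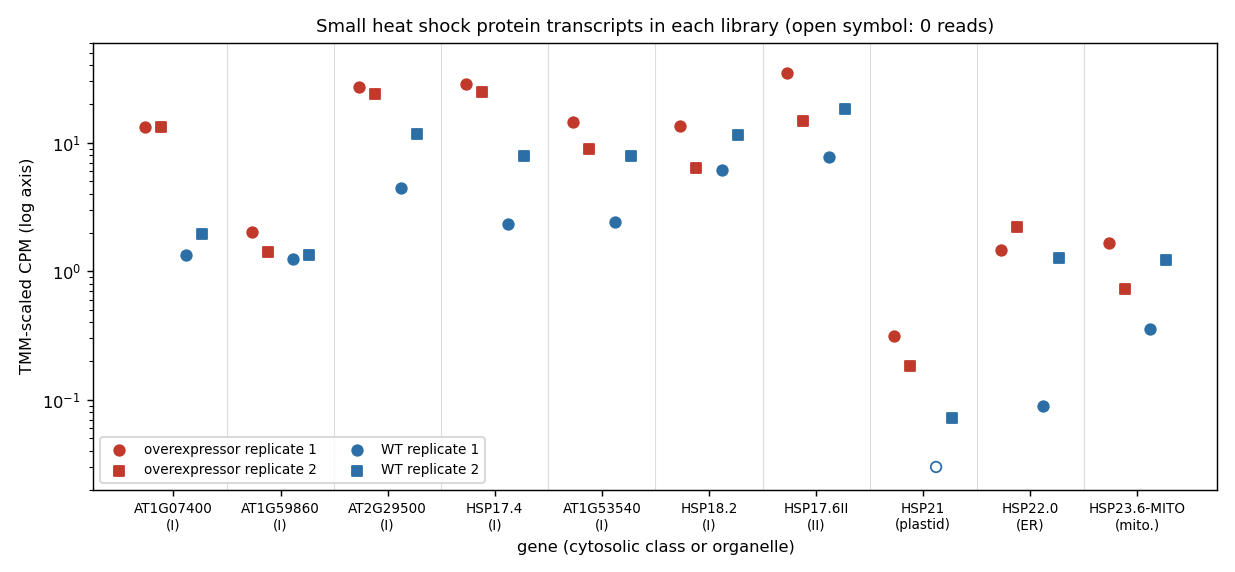
Level of each gene in the 4 libraries as TMM-scaled CPM on a log axis, with overexpressor libraries in red and WT libraries in blue, circles for replicate 1 and squares for replicate 2, and an open symbol at the foot for 0 reads. AT1G07400 shows the widest gap, 13.2 and 13.3 CPM in overexpressor against 1.34 and 1.95 CPM in WT libraries, while HSP18.2, HSP17.6II and HSP23.6-MITO overlap.

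AT1G07400 and AT1G59860 are the most alike pair of the family, with 89.7% identity over the shorter coding sequence, and the printed stretches end in the same bases from the element onward. Per length, as a ratio of the deposited TPM within a library, AT1G07400 stood at 5.55 and 7.98 times AT1G59860 in overexpressor replicates 1 and 2, and at 0.915 and 1.25 times in WT replicates 1 and 2. A ratio within a library does not depend on how libraries are scaled, and it was higher in both overexpressor libraries. The ratio carries the rise of AT1G07400, the gene that passed the test, so it is not separate support for that rise. With 2 libraries a genotype no test of the ratio was run. The 2 genes share short stretches in which a read cannot be told apart: 3.14% of the 31-base words of the AT1G07400 transcript in RefSeq occur in another small heat shock transcript of the 17 compared, and the longest run that it shares with AT1G59860 is 43 bases. The sources used here do not say how reads of near-identical stretches were assigned. Among the 10 genes AT1G59860 had the next highest share of such words, 2.96%, and the remaining 8 had at most 0.353%.

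Summed over the 10 genes, TPM was 264.9 and 190.0 in overexpressor replicates 1 and 2 and 42.97 and 139.2 in WT replicates 1 and 2. TPM is a share of its library, so the 31.7% of organelle reads in WT replicate 1 lower the TPM of nuclear genes there. As TMM-scaled CPM the sums were 136.9 and 96.8 in overexpressor replicates and 26.2 and 63.0 in WT replicates. In both measures the lower overexpressor library stood above the higher WT library. Class I genes made up 72.2% and 81.6% of these sums in overexpressor libraries and 68.7% and 67.5% in WT libraries. Single genes differed more in their share. HSP17.6II held the highest TPM of the 10 in both WT libraries and in overexpressor replicate 1, and HSP17.4 held it in overexpressor replicate 2. HSP17.4 made up 20.6% and 25.6% of the summed TPM of the 10 in overexpressor replicates 1 and 2, and 8.63% and 12.1% in WT replicates 1 and 2. HSP18.2 made up 10.2% and 6.87% of that sum in overexpressor replicates and 23.9% and 18.48% in WT replicates. The TPM ratio of HSP17.4 to HSP18.2 was thus 2.03 and 3.72 in overexpressor libraries and 0.361 and 0.657 in WT libraries, a pair chosen after its values were seen. AT1G53540, whose coding sequence is 85.6% identical to that of HSP17.4, kept to between 10.4% and 13.9% of the sum in every library.

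**Figure D3:**
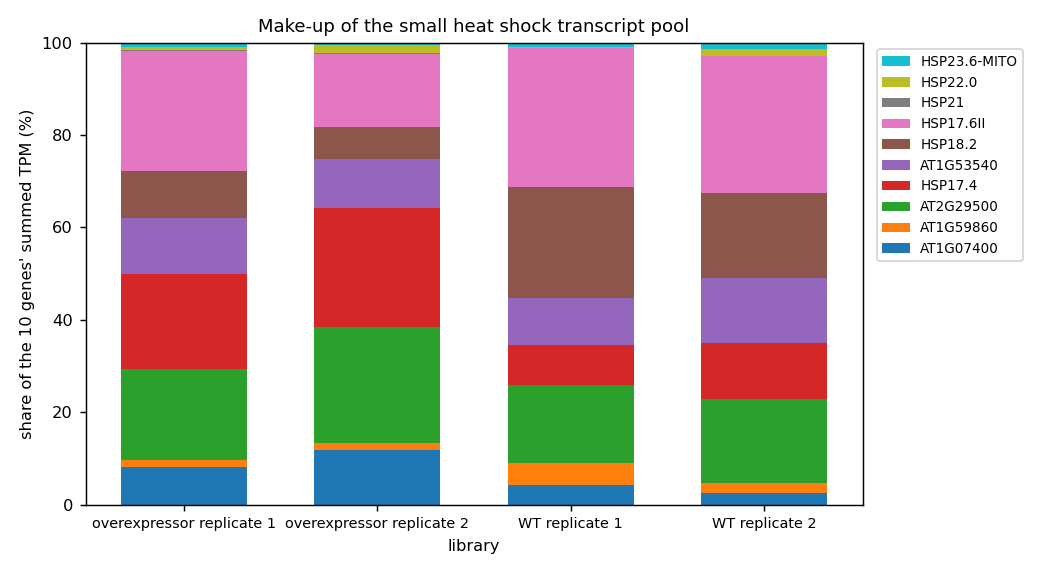
Share of each gene in the summed TPM of the 10 small heat shock genes, in percent, for each library. HSP17.4 (red) takes 20.6% and 25.6% in the overexpressor libraries against 8.63% and 12.1% in the WT libraries, and HSP18.2 (brown) takes 10.2% and 6.87% against 23.9% and 18.48%.

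The class II gene HSP17.6II had 34.7 and 14.9 CPM in overexpressor replicates and 7.78 and 18.4 CPM in WT replicates. WT replicate 2 was above overexpressor replicate 2, and the log2 fold change was 0.88 ± 0.54 (adjusted p of 0.384 in edgeR's test). Leaving out overexpressor replicate 1 or 2 gave 0.18 or 1.39, and leaving out WT replicate 1 or 2 gave 0.43 or 1.65, none of them past the test. Its neighbour on chromosome 5, the class II gene HSP17.6A (AT5G12030), is not among the 10. HSP17.6A had 18.3 and 11.05 CPM in overexpressor replicates and 0.983 and 6.73 CPM in WT replicates, with a log2 fold change of 1.80 ± 0.73 that did not pass (adjusted p of 0.24 in edgeR's test). It was 1.12 without WT replicate 1 and 3.88 without WT replicate 2, where it passed with an adjusted p of 0.0202 from edgeR, and it also passed with scaling by library size only, with 0.0267.

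The genes for organelles and the ER were expressed at low levels. HSP21, which protects plastid proteins, had 6 and 5 reads in overexpressor replicates and 0 and 2 reads in WT replicates. Pooled over a genotype, 11 against 2 reads gave a ratio of 4.58 with an exact 95% counting interval of 0.999 to 42.5, so a difference was not detectable at this depth; such intervals cover counting error only. HSP22.0, of the ER, had 28 and 61 reads in overexpressor replicates and 1 and 35 reads in WT replicates, or 1.46 and 2.22 CPM and 0.0894 and 1.27 CPM. Its log2 fold change of 1.23 ± 0.82 did not pass (adjusted p of 0.418 in edgeR's test) and became 0.57 without WT replicate 1, with an adjusted p of 0.505, and 4.28 without WT replicate 2, where HSP22.0 passed with 0.044. HSP23.6-MITO had 1.66 and 0.729 CPM in overexpressor replicates and 0.358 and 1.23 CPM in WT replicates, with overlapping genotypes and a log2 fold change of 0.43 ± 0.68. That value turned to -0.06 without WT replicate 1 and to -0.19 without overexpressor replicate 1.

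The 2 libraries of a genotype also differed in these genes. Between the WT libraries all 9 tested genes were higher in replicate 2 than in replicate 1, with a median log2 ratio of 1.38, beside 0.01 over all genes tested; 5.05% of all genes tested had a ratio above 1. Between the overexpressor libraries 7 of the 9 were lower in replicate 2, with a median log2 ratio of -0.51, beside a median of 0.00 over all genes tested. AT1G07400 and AT1G59860 were the members with the smallest ratios between the WT libraries, 0.54 and 0.10 on the log2 scale, and HSP22.0 had the largest, 3.82. The low WT library was the one with 31.7% of reads in organelle-encoded genes, and the part of that library's make-up in its low small heat shock levels was not tested.

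**Figure D4:**
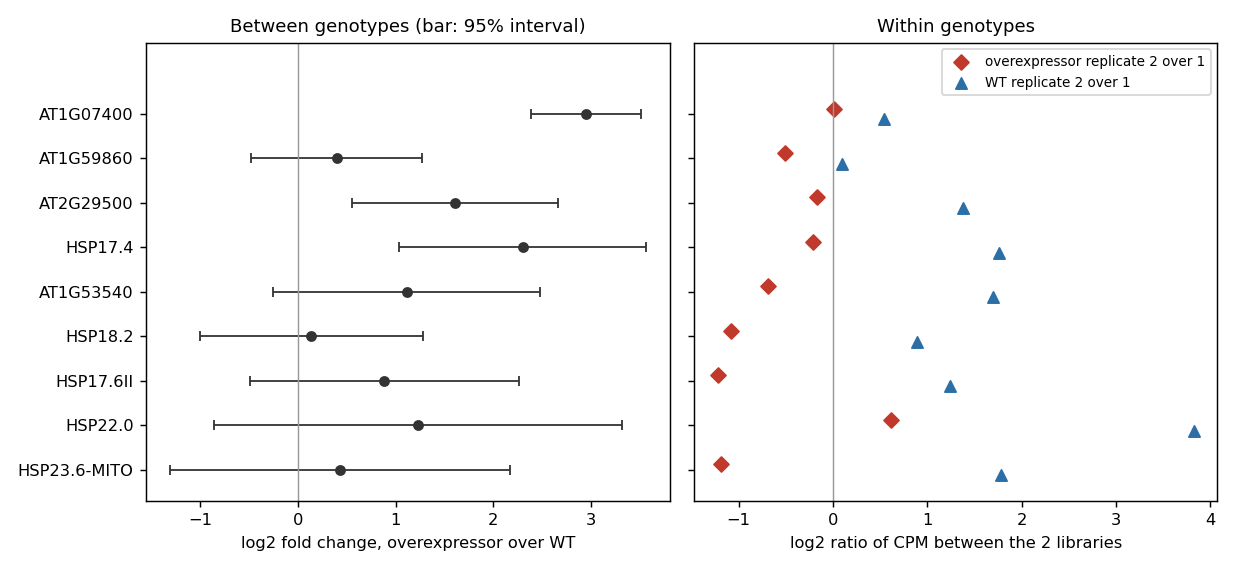
Left, log2 fold change of overexpressor over WT for the 9 tested genes with 95% intervals; right, log2 ratio of replicate 2 over replicate 1 within the overexpressor (red diamonds) and within WT (blue triangles). The interval of AT1G07400 runs from 2.39 to 3.51, and all 9 blue triangles lie above 0.

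Of 7 small heat shock genes outside the 10, HSP17.6A included, 0 passed edgeR's test over all genes. At an unadjusted p below 0.05 from edgeR, 2 were higher and 0 lower. Over all genes tested, 11.9% were higher and 21.7% differed in either direction at that threshold. DESeq2 called 1 of the 7 higher, against 4.4% of all the genes it tested. The median log2 fold change of the 7 was 0.58. AT2G19310, listed as cytosolic, had 59.97 and 53.3 CPM in overexpressor replicates and 33.0 and 42.7 CPM in WT replicates, a log2 fold change of 0.58 ± 0.15. Of the genes listed as mitochondrial, AT5G51440 had a log2 fold change of 0.66 ± 0.23 and AT1G52560 one of 1.20 ± 0.71, which was 0.34 without overexpressor replicate 1 and 2.24 without WT replicate 2.

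Larger chaperones and heat-induced partners, which work downstream of the small ones or with them, numbered 20, of which 19 were tested. None passed edgeR's test over all genes, while 8 were higher and 0 lower at an unadjusted p below 0.05. Over all genes tested, 11.9% were higher at that threshold and 21.7% differed in either direction. DESeq2 called 4 higher, against 4.4% of all the genes it tested. The median log2 fold change was 0.50. The J-domain gene AT2G20560, a partner of HSP70, had 20.9 and 26.7 CPM in overexpressor replicates and 6.62 and 10.3 CPM in WT replicates, a log2 fold change of 1.47 ± 0.25 and an adjusted p of 0.0938 from edgeR. The heat-inducible HSP90.1 had 37.8 and 31.3 CPM in overexpressor replicates and 11.4 and 21.2 CPM in WT replicates, at 1.06 ± 0.30. The log2 fold change was 0.93 ± 0.32 for the stress-inducible HSP70 (AT3G12580) and 1.04 ± 0.40 for MBF1C, a coactivator of the heat response. HSP101, the disaggregase that takes over proteins held by small heat shock proteins, had 15.397 and 13.2 CPM in overexpressor replicates and 9.39 and 13.1 CPM in WT replicates, at 0.33 ± 0.20. Both overexpressor libraries stood above both WT libraries for 11 of the 19 tested, and below both for 1. Over all genes tested these shares were 28.7% and 28.4%. AT2G20560, HSP90.1, HSP70, MBF1C and HSP101 were among the 11, HSP101 by a small margin. Without WT replicate 1 the log2 fold changes of HSP70, MBF1C and HSP101 were 0.56, 0.61 and 0.14. Without WT replicate 2 those of AT2G20560, HSP90.1, HSP70 and MBF1C were 1.85, 1.60, 1.48 and 1.83.

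Heat shock factors, which bind the elements shown above, had 0 of 17 tested past edgeR's test over all genes. At an unadjusted p below 0.05 from edgeR, 3 were higher and 1 lower. Over all genes tested, 11.9% were higher and 21.7% differed in either direction at that threshold. DESeq2 called 1 factor higher, against 4.4% of all the genes it tested. The median log2 fold change of the factors was 0.32. HSFA2, the heat-induced factor that prolongs the response, had 2.96 and 3.61 CPM in overexpressor replicates and 0.447 and 0.651 CPM in WT replicates, a log2 fold change of 2.51 ± 0.35 and an adjusted p of 0.0793 from edgeR. The master factors that are present before heat had log2 fold changes of 0.17 ± 0.19 for HSFA1A, 0.32 ± 0.14 for HSFA1B, -0.26 ± 0.15 for HSFA1D and 0.87 ± 0.33 for HSFA1E, none past the test. HSFB1, a repressor of the response, had a log2 fold change of 0.47 ± 0.43, HSFB4 one of -0.94 ± 0.35 and HSFA8 one of 0.91 ± 0.44. HSFA8 had 2.55 and 5.87 CPM in overexpressor replicates and 2.32 and 2.21 CPM in WT replicates, and leaving out overexpressor replicate 2 gave it a log2 fold change of 0.18, while leaving out overexpressor replicate 1 gave 1.39. Without WT replicate 1 HSFB1 was at -0.018 and HSFB4 at -0.55. Without WT replicate 2 HSFB1 was at 1.39, HSFA2 at 2.87 and HSFA1E at 1.33. HSFA9, the seed-specific factor of small heat shock genes, had no read in any library, where 3 reads would be 0.108 to 0.268 CPM.

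Genes of the response to unfolded proteins in the ER, where HSP22.0 resides, had 0 of 9 past edgeR's test over all genes and 0 called by DESeq2. At an unadjusted p below 0.05 from edgeR, 3 were higher and 0 lower. Over all genes tested, 11.9% were higher and 21.7% differed in either direction at that threshold. The median log2 fold change of the 9 was 0.16. The ER chaperones BIP1 and BIP2 had log2 fold changes of 0.34 ± 0.12 and 0.28 ± 0.10, the calreticulin CRT1b 0.16 ± 0.09, and the factor BZIP60, which drives this response, 0.41 ± 0.16.

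The genes outside these lists whose pattern over the 4 libraries was closest to the median pattern of the 9 tested genes were found by the root-mean-square difference of log2(CPM + 0.5), each gene centred on its own mean. They were AT3G10020, whose product RefSeq does not name further, at a distance of 0.142, LBD1, a LOB-domain protein, at 0.156, EARLI1, a cold-induced lipid-transfer-like protein, at 0.167, the chitinase HCHIB at 0.182 and the kinase SIP4 at 0.197. AT3G10020 had 26.01 and 20.7 CPM in overexpressor replicates and 4.74 and 16.6 CPM in WT replicates. Among the 10 genes AT1G53540 was closest to that median pattern, and AT1G07400 was the farthest of the 9 tested, at 0.846. A pattern over 4 libraries carries little information, and WT replicate 1 was the lowest point of the median pattern.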

How the data were processed

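Poly(A) RNA, 200 ng a sample, went into stranded Illumina libraries, per the labels' protocols. For each library the authors deposited a table of 33602 genes that holds estimated counts, TPM and lengths, per the file headers. The estimated counts are as the authors deposited them, without scaling, while TPM in the deposited tables is scaled by effective length and library sum. No quantifier, build or annotation is named in the sources used here. DESeq2 is named in the submitters' processing notes. Totals ranged from 13974460 to 25740234 reads, so 3 reads correspond to 0.108 to 0.268 CPM.

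After rounding, the estimated counts entered edgeR 4.0.16 under R 4.3.3, with filterByExpr (minimum count 10, minimum total 15), TMM, glmQLFit, glmQLFTest and Benjamini-Hochberg adjustment. The SE is edgeR's unshrunk coefficient divided by the square root of F, so it matches the printed, shrunken fold change only approximately at low counts, and the 95% intervals use it with edgeR's degrees of freedom. The script was tested on simulated data. Alternatives were DESeq2 1.42.0, RLE factors, scaling by library size only, organelle genes left out, other filters, effective length as an offset, the replicate number as a block, and each library left out. The chi-square per degree of freedom between replicates was 9.12 in the overexpressor and 400.0 in WT, above sampling noise. It was taken over counts scaled by library totals only, with organelle-encoded genes included. It is thus not the spread that enters the edgeR p-values. Those set the difference between genotypes against a spread between libraries after TMM scaling, estimated with information shared across genes.

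The genes and lists were chosen with earlier results of these data known, so no test was run over a list. All 10 genes are named; of each other list, those past the threshold, up to 4 with the largest fold change whose mean reached 1 CPM, and HSFA1A, HSFA1B, HSFA1D, HSFA2, HSFB1, HSP101, HSP70 and HSP90.1. HSFA9 was named after its values were seen. Symbols come from RefSeq TAIR10.1, and 32835 of 33602 identifiers matched. Sequences were read from that assembly, and coding identity was aligned with Biopython 1.88.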

Additional observations from a re-analysis of the deposited data

How the results depend on the processing

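The 9 tested small heat shock genes all kept a positive log2 fold change under DESeq2, RLE factors, scaling by library size, omission of organelle genes, both other filters, effective lengths and the replicate block; scaling by library size moved the median of all genes to 0.10. Of the results for single named genes, 325 values under alternatives kept their direction and side of the threshold, 28 newly passed, 2 no longer passed and 5 changed sign. The sign changes came from leaving out WT replicate 1 or overexpressor replicate 1 in HSP18.2 (-0.21 and -0.47) and HSP23.6-MITO (-0.06 and -0.19) and from leaving out WT replicate 1 in HSFB1 (-0.018). With 1 library left out, HSP18.2 ran from -0.47 to 0.67, HSP23.6-MITO from -0.19 to 1.69 and HSFB1 from -0.018 to 1.39. The cause of these changes was not tested.

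The number of small heat shock genes that rose, 1, was 3 with DESeq2 and with scaling by library size, and 0 to 5 when 1 library was left out. A fit that leaves out 1 library has a lone library in 1 genotype, which is there assumed to vary like the other genotype. The number of genes that pass in such a fit also moved widely over all genes, as the end of this paragraph gives. None fell in any setting. The median of 1.11 ran from 0.57 to 2.26 when 1 library was left out. Over all genes, 27 rose and 2 fell; the numbers were 912 and 307 with DESeq2, 570 and 239 with scaling by library size, 163 and 21 without organelle genes, 305 and 57 with no low-count filter, 65 and 10 with at least 1 CPM in 2 libraries, and 0 to 1189 and 0 to 1014 when 1 library was left out.

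Of the other small heat shock genes 1 passed with DESeq2 and 1 with scaling by library size, and 0 to 2 when 1 library was left out. Of the larger chaperones 4 passed with DESeq2, 1 with scaling by library size and 1 with no low-count filter, and 0 to 8 when 1 library was left out. Of the heat shock factors 1 passed with DESeq2, 1 with scaling by library size and 1 with no low-count filter, and 0 to 2 when 1 library was left out. With the replicate number as a block, 329 genes rose and 43 fell over all, 1 of the larger chaperones passed, and the small heat shock genes still had 1; deviations of same-numbered libraries correlated at 0.058, and with 2 numbers this does not show that they pair the libraries. Depth limits HSP21, HSP22.0 and HSP23.6-MITO most.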
